A study of Mus musculus with 4 samples.

Results

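The homeobox genes followed here were Hoxa5, Hoxa7, Hoxa9, Hoxa10, Hoxb3, Hoxb4, Hoxb5, Meis1 and Pbx3, taken by symbol from a table of 55399 genes. These are 9 homeobox genes known for their roles in haematopoietic stem and progenitor cells, and they were set beside all 39 genes of the Hox clusters and 11 genes of the partner class. RNA was sequenced in bulk from mouse bone marrow cells labelled Lsk, a sort on absence of lineage markers and presence of Sca-1 and Kit that enriches haematopoietic stem cells (HSCs) and early progenitors. There were 2 libraries labelled Ppm1bCKO, a conditional knockout of the metal-dependent phosphatase gene Ppm1b, and 2 labelled Ppm1bfl/fl, whose Ppm1b alleles are flanked by loxP sites. The Cre line, the ages of the mice and any pooling are not stated in the labels, and nothing in the labels says that replicates are separate mice, so the spread behind each p-value may be technical. The series title ties Ppm1b to HSC self-renewal, and the comparison asks whether this homeobox programme differs with the genotype.

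HOX proteins are homeodomain transcription factors whose genes lie in clusters, where gene order follows the order of activation along the body axis. In blood formation, genes of the Hoxa and Hoxb clusters are active in stem and early progenitor cells and are switched off as cells mature. HOX proteins bind DNA together with PBX and MEIS proteins, homeodomain factors of the TALE class, and sustained HOXA9 and MEIS1 activity blocks differentiation and drives leukaemia in mice.

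No member passed the test between the genotypes. Of the 9, 8 passed the filter on low counts and were tested, and edgeR's quasi-likelihood test called 0 of them at an adjusted p of 0.05, where it called 0.372% of all 16393 tested genes. At an unadjusted p under 0.05 there were again 0 members, against 6.44% of all tested genes, and DESeq2 and limma-voom also found 0 at either threshold. The median log2 fold change (Ppm1bCKO over Ppm1bfl/fl) over the 8 members was -0.14, beside -0.0032 over all tested genes, and 5 of the 8 were negative, beside 50.4% of all tested genes. The members' median was -0.07 without Ppm1bCKO replicate 1 and -0.034 without Ppm1bCKO replicate 2. In bulk RNA, fewer cells of a type and less RNA per cell cannot be told apart.

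Library totals ran from 22393973 to 30045382 counts. Ppm1b itself stood at 84.3 and 121 CPM (counts scaled to library size by TMM, the normalisation used throughout) in the libraries labelled Ppm1bCKO, against 80.7 and 82.5 CPM in the Ppm1bfl/fl libraries, so it was not lower and each direction rests on the labels; a count over all exons does not show whether some were deleted. The libraries were not alike within a genotype: edgeR called 61 genes with all 4 libraries, 94 without Ppm1bCKO replicate 2 and 3336 without Ppm1bCKO replicate 1. Of the markers behind the name Lsk, the stem cell factor receptor gene Kit had 187 and 121 CPM in the libraries labelled Ppm1bCKO, against 228 and 194 CPM in the Ppm1bfl/fl libraries. Ly6a, which encodes Sca-1, had 17.7 and 22.2 CPM against 22.2 and 18.3 CPM. All 10 surface markers of stem and progenitor cells were detected, with summed levels of 652 to 790 CPM in the libraries labelled Ppm1bCKO and 724 to 893 CPM in Ppm1bfl/fl, and 8 of the 10 had a negative log2 fold change. Transcripts of maturing cells were also abundant, with 8 erythroid markers summing to 10644 and 15415 CPM in the libraries labelled Ppm1bCKO and 7043 and 12491 CPM in Ppm1bfl/fl. Plasma cell markers, with 7 of 8 log2 fold changes negative, summed to 4097 and 5519 CPM against 21689 and 13027 CPM. Macrophage markers, with all 10 negative, summed to 478 and 600 CPM against 785 and 819 CPM. Sums were higher in both libraries labelled Ppm1bCKO for B cell markers (285 and 622 CPM against 185 and 191 CPM, all 8 log2 fold changes positive) and eosinophil markers (3399 and 5710 CPM against 2341 and 2469 CPM, all 5 positive). So were those of neutrophil markers (4445 and 5284 CPM against 4417 and 4269 CPM, 6 of 8 positive). Dendritic cell markers (620 and 631 CPM against 510 and 486 CPM, 5 of 6 positive) were higher too. The same held for T and NK cell markers (148 and 185 CPM against 139 and 126 CPM, 6 of 7 positive). Stromal sums overlapped between the genotypes. Of these marker genes, edgeR called 1, a plasma cell marker (Igha). Their part in the homeobox levels was not tested.

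The starts of 6 of the 9 members (Hoxa5, Hoxa7, Hoxa9, Hoxa10, Hoxb4 and Meis1) were matched by symbol to a RefSeq table for GRCm38.p6, the assembly called mm10. The sequences upstream of 4 of them are shown, and those of Hoxa7 and Hoxa10 are not. That of Hoxa13 is shown because it belongs to the same cluster as Hoxa9 and had no read in any library. Each ends at the annotated start, except that of Meis1, where the last bases are left out because the count table places exon there. Capitals mark CCAAT on either strand, the only motif of those searched that occurred in these windows.
Hoxa9, chr6:52227371-52227620, minus strand: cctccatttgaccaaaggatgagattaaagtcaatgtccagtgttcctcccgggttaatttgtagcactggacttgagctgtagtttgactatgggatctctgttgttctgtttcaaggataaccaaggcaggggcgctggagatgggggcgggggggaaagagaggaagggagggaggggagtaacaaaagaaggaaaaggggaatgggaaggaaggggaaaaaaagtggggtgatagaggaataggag
Hoxa5, chr6:52204588-52204837, minus strand: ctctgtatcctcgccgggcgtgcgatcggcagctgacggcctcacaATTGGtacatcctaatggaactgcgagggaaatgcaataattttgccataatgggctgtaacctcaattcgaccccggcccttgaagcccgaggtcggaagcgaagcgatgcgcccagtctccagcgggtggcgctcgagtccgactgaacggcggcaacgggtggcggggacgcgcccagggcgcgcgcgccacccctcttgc
Hoxb4, chr11:96318017-96318266, plus strand: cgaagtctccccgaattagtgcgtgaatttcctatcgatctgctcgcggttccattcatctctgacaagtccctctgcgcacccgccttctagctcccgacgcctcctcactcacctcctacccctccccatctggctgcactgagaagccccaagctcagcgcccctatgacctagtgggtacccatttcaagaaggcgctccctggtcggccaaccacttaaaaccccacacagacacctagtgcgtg
Meis1, chr11:19018986-19019219, minus strand: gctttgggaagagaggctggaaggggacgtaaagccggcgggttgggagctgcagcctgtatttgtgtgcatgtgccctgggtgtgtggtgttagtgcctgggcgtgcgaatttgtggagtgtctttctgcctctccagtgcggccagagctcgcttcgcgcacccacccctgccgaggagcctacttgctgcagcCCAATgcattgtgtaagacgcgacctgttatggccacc
Hoxa13, chr6:52260881-52261130, minus strand: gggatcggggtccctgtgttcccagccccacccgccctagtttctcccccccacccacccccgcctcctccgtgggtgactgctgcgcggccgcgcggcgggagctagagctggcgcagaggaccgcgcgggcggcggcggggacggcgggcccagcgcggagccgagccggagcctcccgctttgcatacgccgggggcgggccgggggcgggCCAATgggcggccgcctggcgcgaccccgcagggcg
The motif CCAAT occurred in the windows of Hoxa5, Meis1 and Hoxa13, and in 33.8% of the 32851 windows of 250 bases in the table. The shared PBX and HOX motif TGATNNAT, found in 7.68% of all windows, and the MEIS motif TGACAG, found in 15.9%, had no match in these 5 windows on either strand. Likewise TATAAA (12.4% of all windows), CACGTG (6.02%) and TGACGTCA (1.55%) did not match in these windows, and none of the motifs contains another. Of the windows not shown, 1 of Hoxa10 held TATAAA and CCAAT, and that of Hoxa7 held no motif. Within the 250 bases, CG steps numbered 3 for Hoxa9, 28 for Hoxa5, 14 for Hoxb4, 13 for Meis1 and 35 for Hoxa13, beside a median of 6 over all windows.

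Transcripts of the Hox family came mostly from the Hoxa cluster on chromosome 6. It gave 85.5% (95% Wilson interval 82.7 to 87.9) and 81.5% (78.5 to 84.2) of all Hox reads in the libraries labelled Ppm1bCKO, against 81.6% (78.9 to 84.0) and 80.5% (77.9 to 83.0) in those labelled Ppm1bfl/fl, and these intervals cover counting error only. Hoxb genes on chromosome 11 gave 93 and 122 reads in the libraries labelled Ppm1bCKO and 150 and 168 reads in Ppm1bfl/fl. The 9 Hoxc genes together gave 7 and 8 reads against 11 and 11 reads, and the 9 Hoxd genes 3 and 2 reads against 1 and 2 reads. Of the 39 Hox genes, 12 had 0 reads in all 4 libraries, which allows up to 3 counts in a library, or 0.0995 to 0.132 CPM. Only 10 Hox genes passed the filter on low counts, 8 of them in Hoxa and 2 in Hoxb.

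Within the Hoxa cluster, levels per kilobase of exon peaked in the middle and fell to 0 reads at the Hoxa13 end. The mean over the 4 libraries was 1.52 CPM per kb for Hoxa5, 0.64 for Hoxa6, 2.76 for Hoxa7, 1.98 for Hoxa9 and 0.34 for Hoxa10, while Hoxa11 and Hoxa13 had 0 reads. In the Hoxb cluster a single gene stood out, Hoxb4 at 1.64 CPM per kb, beside 0.11 for its neighbour Hoxb3 and 0.057 for Hoxb5. These levels divide by all annotated exon bases of a gene, including those of rarer transcripts, so a gene with unused exons reads low.

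**Figure D1:**
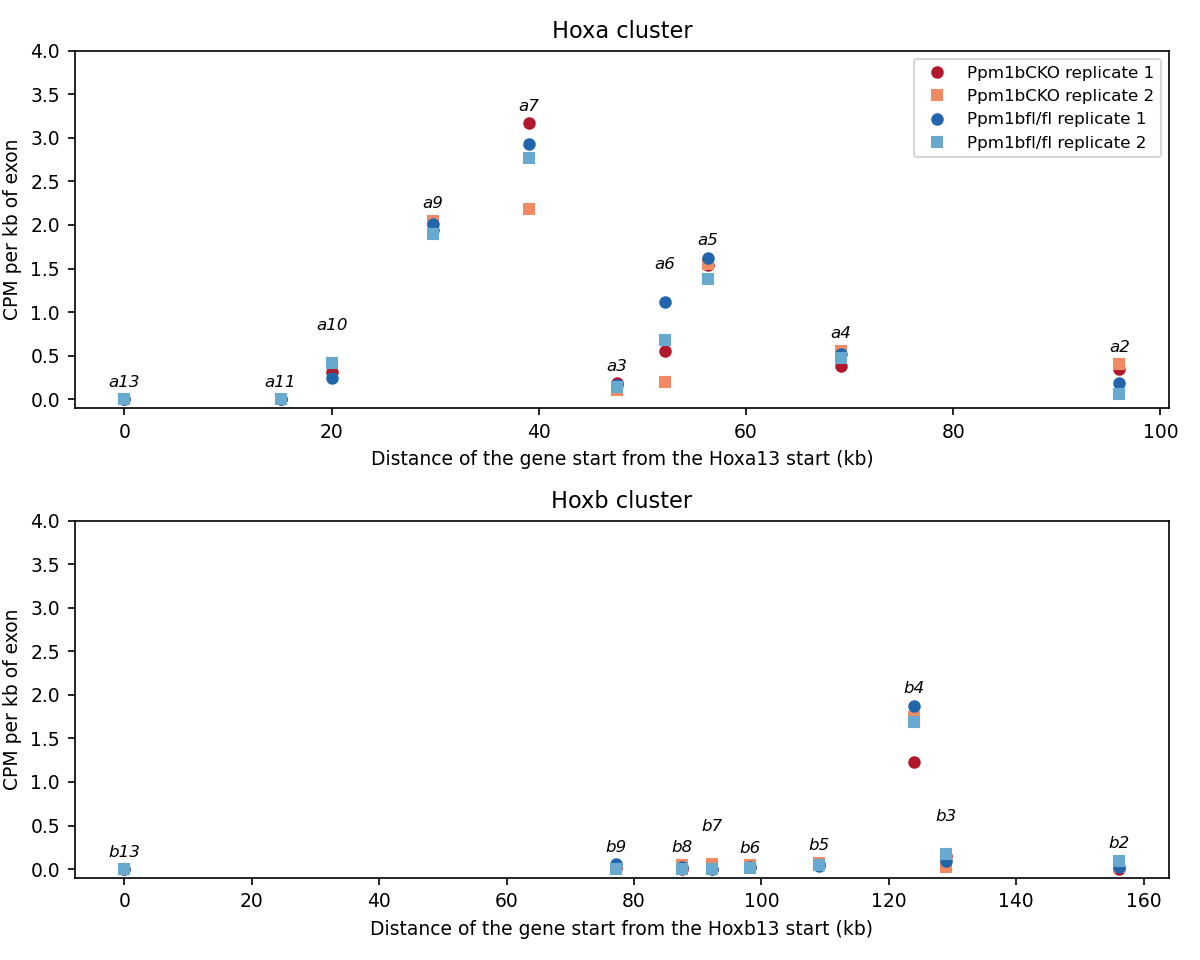
Levels of Hoxa genes (top) and Hoxb genes (bottom) in CPM per kb of exon, against the distance of the gene's outermost annotated start from the start of Hoxa13 or Hoxb13 in kb; points are the 4 libraries. Hoxa7 and Hoxa9 are the high points of the first cluster and Hoxb4 that of the second, and Hoxa3 is drawn at a far upstream start, on the Hoxa13 side of Hoxa6.

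Hoxa9 was the steadiest member. The gene (ENSMUSG00000038227.15, chromosome 6, 52223100 to 52231089, mm10) promotes self-renewal of progenitors and is often raised in human acute myeloid leukaemia. It had 10.9 and 11.4 CPM in the libraries labelled Ppm1bCKO, against 11.2 and 10.6 CPM in the Ppm1bfl/fl libraries. The groups overlapped and all 4 values lay close together. Its log2 fold change was 0.03 ± 0.21 (SE), with a 95% interval of -0.46 to 0.52 (edgeR adjusted p = 0.971), so the interval runs from 0.727-fold to 1.44-fold. The value, close to 0, was -0.013 without Ppm1bfl/fl replicate 2, -0.0060 without Ppm1bCKO replicate 2, and 0.07 and 0.06 without replicate 1 of Ppm1bfl/fl and of Ppm1bCKO. An exon of Hoxa9, as annotated for counting, contains the hairpin of miR-196b, which in mouse represses Hox transcripts by base pairing. That annotation reaches beyond the RefSeq start used above, so the upstream sequence shown for Hoxa9 lies inside the gene as counted. The hairpin's own entry had 0 reads in all 4 libraries, and 85 of the 5580 exon bases of Hoxa9 are shared with it. Its mature 5p strand (chromosome 6, 52230129 to 52230150, RefSeq, GRCm38.p6) is given with the seed, bases 2 to 8, in capitals.
mmu-miR-196b-5p: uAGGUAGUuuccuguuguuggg

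Hoxa5 and Hoxa7 had similar levels in both genotypes as well. Hoxa5 (ENSMUSG00000038253.6, chromosome 6, 52201754 to 52204587), whose raised expression shifts progenitors toward myeloid cells at the expense of erythroid cells, had 2.90 and 2.91 CPM in the libraries labelled Ppm1bCKO and 3.04 and 2.59 CPM in the Ppm1bfl/fl libraries. The Ppm1bfl/fl values lay on either side of the Ppm1bCKO values, and the log2 fold change was 0.05 ± 0.31 (95% interval -0.66 to 0.75, edgeR adjusted p = 0.970). It was -0.068 without Ppm1bfl/fl replicate 2 and 0.16 without Ppm1bfl/fl replicate 1. Hoxa7 (ENSMUSG00000038236.8, chromosome 6, 52214491 to 52221854), a neighbour with overlapping functions in progenitors and leukaemia, had 9.10 and 6.28 CPM in the libraries labelled Ppm1bCKO, against 8.42 and 7.96 CPM in Ppm1bfl/fl. Ppm1bCKO replicate 2 was the low library for this gene and replicate 1 the high one. The log2 fold change was -0.09 ± 0.26 (95% interval -0.69 to 0.51, edgeR adjusted p = 0.925), and it was 0.15 without Ppm1bCKO replicate 2 and -0.38 without Ppm1bCKO replicate 1. The antisense gene Hoxaas3 covers 20.4% of the exon bases of Hoxa7, and because the strand setting of the counting is not given here, reads of the pair cannot be told apart there; Hoxaas3 had 10 and 13 reads in the libraries labelled Ppm1bCKO and 13 and 21 reads in Ppm1bfl/fl.

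Hoxa10 (ENSMUSG00000000938.11, chromosome 6, 52231197 to 52240854), which restrains differentiation and affects erythroid and megakaryocyte output, was scarce. It had 23 and 32 reads in the libraries labelled Ppm1bCKO and 21 and 41 reads in the Ppm1bfl/fl libraries, or 1.01 and 1.35 CPM against 0.79 and 1.36 CPM. The replicates of each genotype differed by more than the genotypes did. At this depth the log2 fold change of 0.13 ± 0.46 has a 95% interval of -0.93 to 1.19 (edgeR adjusted p = 0.940). Without Ppm1bfl/fl replicate 2 it was 0.58, without Ppm1bfl/fl replicate 1 it was -0.21, and without Ppm1bCKO replicate 2 it was -0.09.

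Hoxb4 was the only Hoxb member well above the floor. Hoxb4 (ENSMUSG00000038692.8, chromosome 11, 96318267 to 96321638), known for expanding HSCs when overexpressed in mouse bone marrow, had 3.17 and 4.47 CPM in the libraries labelled Ppm1bCKO and 4.81 and 4.34 CPM in the Ppm1bfl/fl libraries. Ppm1bCKO replicate 1 was low and the other 3 libraries lay together, so the groups overlapped. Its log2 fold change was -0.26 ± 0.30 (95% interval -0.94 to 0.42, edgeR adjusted p = 0.796), and it was -0.04 without Ppm1bCKO replicate 1 and -0.53 without replicate 2.

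Hoxb3 and Hoxb5 lay near the limit of detection. Hoxb3 (ENSMUSG00000048763.11, chromosome 11, 96323326 to 96347930), which overlaps in function with Hoxb4 in stem cell regeneration, had 15 and 2 reads in the libraries labelled Ppm1bCKO and 10 and 22 reads in Ppm1bfl/fl. Ppm1bCKO replicate 2 decided the sign of its log2 fold change of -0.59 ± 0.83 (95% interval -2.48 to 1.30, edgeR adjusted p = 0.831), which was 0.24 without that library and -2.66 without Ppm1bCKO replicate 1 (edgeR unadjusted p = 0.0324, adjusted p = 0.113). The antisense gene Hoxb3os covers 52.9% of the exon bases of Hoxb3 and had 7 and 9 reads in the libraries labelled Ppm1bCKO, against 0 and 1 reads in the Ppm1bfl/fl libraries, too few for the test. Without a known strand setting the reads of this pair cannot be told apart over the shared bases. Hoxb5 (ENSMUSG00000038700.4, chromosome 11, 96303336 to 96306121), used in mouse as a reporter for long-term HSCs, had 4 and 5 reads in the libraries labelled Ppm1bCKO and 3 and 4 reads in Ppm1bfl/fl. It did not pass the filter on low counts and no difference was detectable at this depth.

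Meis1 was the member with the most reads. The gene (ENSMUSG00000020160.18, chromosome 11, 18879817 to 19018985) encodes the HOXA9 partner that keeps HSCs quiescent and limits oxidative stress, and it is also needed for megakaryocyte formation. It had 21.9 and 18.2 CPM in the libraries labelled Ppm1bCKO and 27.3 and 18.5 CPM in the Ppm1bfl/fl libraries. Ppm1bfl/fl replicate 1 was the high library, and the other Ppm1bfl/fl library lay between the Ppm1bCKO values. The log2 fold change was -0.19 ± 0.24 (95% interval -0.74 to 0.36, edgeR adjusted p = 0.814), and it was 0.11 without Ppm1bfl/fl replicate 1 and -0.45 without Ppm1bfl/fl replicate 2. Other genes share 18.3% of the exon bases of Meis1, among them the same-strand entry Gm37818, which had 24 and 3 reads in the libraries labelled Ppm1bCKO and 20 and 29 reads in Ppm1bfl/fl.

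Megakaryocyte markers were also highest, in sum, in the library where Meis1 was highest. The 5 markers summed to 336 and 423 CPM in the libraries labelled Ppm1bCKO, against 601 and 208 CPM in the Ppm1bfl/fl libraries. None of the 5 was at 0, and 4 had a negative log2 fold change. For example, the platelet chemokine gene Ppbp had 109 and 149 CPM in the libraries labelled Ppm1bCKO and 226 and 48.8 CPM in Ppm1bfl/fl. Itga2b, Gp9 and Gp1ba also peaked in Ppm1bfl/fl replicate 1, but Pf4 was highest in Ppm1bCKO replicate 2. Of the homeobox members, Hoxa5, Hoxb4 and Pbx3 were also highest in Ppm1bfl/fl replicate 1. So were the summed level of the 9 members (67.1 CPM) and that of the stem and progenitor surface markers (893 CPM). Hoxa7, Hoxa9, Hoxa10, Hoxb3 and Hoxb5 had their highest values in other libraries. Ppm1bfl/fl replicate 1 was also highest for the summed plasma cell markers (21689 CPM) and TALE genes (282 CPM), but not for the remaining cell type lists. The lowest library was Ppm1bCKO replicate 2 for Meis1 and Ppm1bfl/fl replicate 2 for the megakaryocyte sum. The part of any of these lists in the level of Meis1 was not tested.

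**Figure D2:**
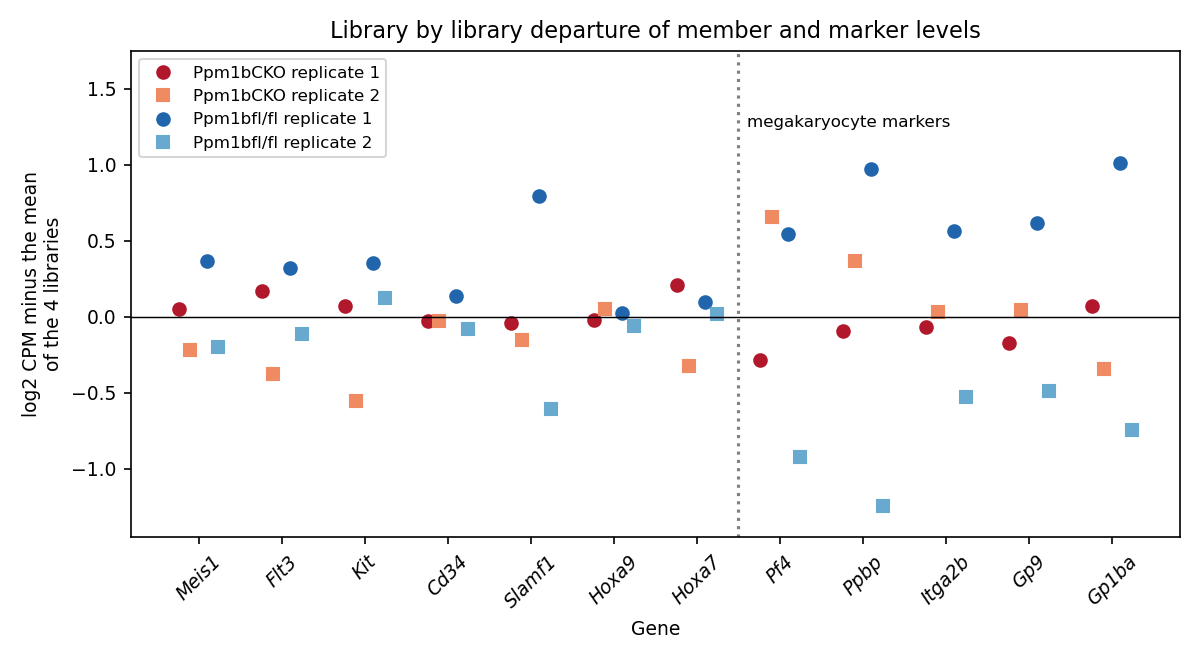
Log2 CPM of each gene minus its mean over the 4 libraries, with each point 1 library. Left of the dotted line are Meis1, the stem and progenitor markers Flt3, Kit, Cd34 and Slamf1, and Hoxa9 and Hoxa7. On the right are 5 megakaryocyte markers. The drawn stem and progenitor markers were picked from the 10 listed. Among those not drawn, Cd48 and Ly6a were highest in Ppm1bCKO replicate 2. For Ly6a the margin was narrow, with 22.25 CPM there and 22.17 CPM in Ppm1bfl/fl replicate 1. Ppm1bfl/fl replicate 1 is the high library for Meis1 (27.3 CPM) and Ppbp (226 CPM), but Ppm1bCKO replicate 2 is that for Pf4. The points of Hoxa9 lie together.

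Pbx3 (ENSMUSG00000038718.15, chromosome 2, 34171457 to 34373142), a HOXA9 partner known from leukaemia, was the only tested member whose groups did not overlap. It had 8.66 and 9.90 CPM in the libraries labelled Ppm1bCKO and 11.1 and 10.2 CPM in the Ppm1bfl/fl libraries. Both Ppm1bCKO values were lower, as was so for 20.6% of all tested genes, and groups stood apart in either direction for 41.1%. Its log2 fold change was -0.20 ± 0.22 (95% interval -0.71 to 0.31, edgeR adjusted p = 0.791), and it was -0.11 without Ppm1bCKO replicate 1. No other row of the count table shares exon bases with Pbx3.

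**Figure D3:**
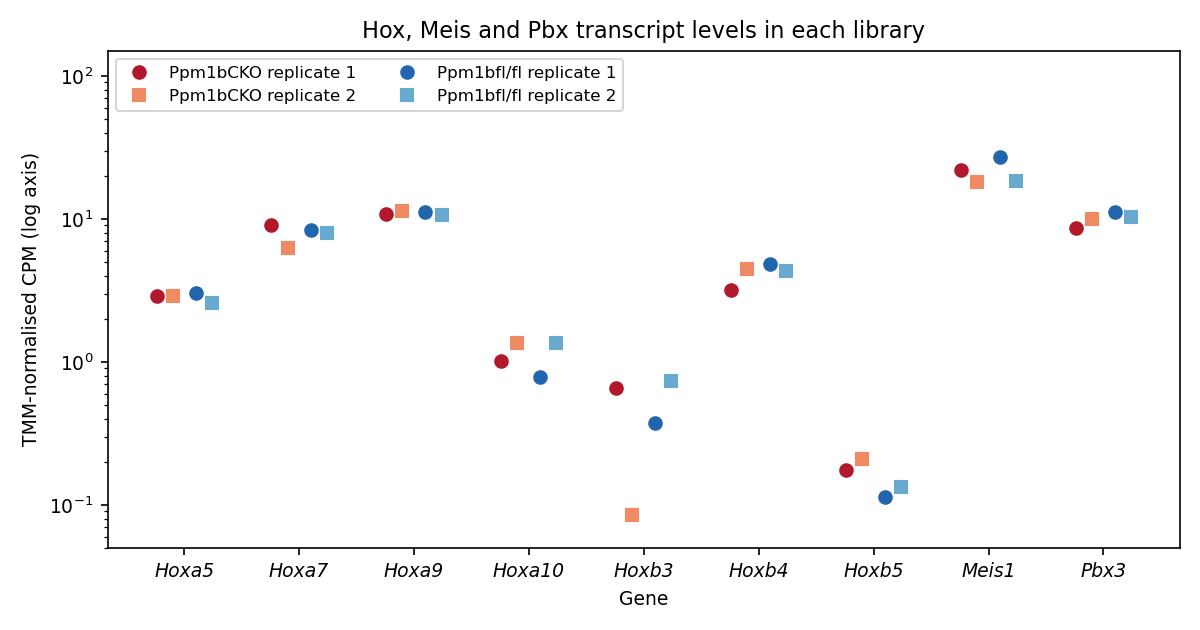
TMM-normalised CPM (log axis) of the 9 members in each library, with the libraries labelled Ppm1bCKO left of the Ppm1bfl/fl libraries. Meis1 is highest, at 18.2 to 27.3 CPM, Hoxb5 and the low Hoxb3 library lie near the limit of detection, and the groups of Pbx3 do not overlap.

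Ordered by mean level per kilobase of exon, the members ran from Hoxa7 (2.76 CPM per kb) through Meis1 (2.04), Hoxa9 (1.98), Hoxb4 (1.64), Pbx3 (1.63), Hoxa5 (1.52), Hoxa10 (0.34) and Hoxb3 (0.11) to Hoxb5 (0.057). Meis1 and Hoxa9 did not differ beyond their spread, with Meis1 higher in 2 of 4 libraries. The ranges over libraries also overlapped between Hoxa7 and Meis1, Hoxb4 and Pbx3, Pbx3 and Hoxa5, and Hoxb3 and Hoxb5. Within libraries, however, Hoxa7 was above Meis1 in all 4. In each of the other pairs just named, the first gene was higher in 3 of 4. Ranges did not overlap between Hoxa9 and Hoxb4, Hoxa5 and Hoxa10, or Hoxa10 and Hoxb3. Together the 9 members took 1329 and 1300 reads in the libraries labelled Ppm1bCKO, or 0.00593% (95% Wilson interval 0.00562 to 0.00626) and 0.00523% (0.00495 to 0.00552) of all reads. In the Ppm1bfl/fl libraries they took 1787 and 1701 reads, or 0.00687% (0.00656 to 0.00720) and 0.00566% (0.00540 to 0.00594). The low Ppm1bfl/fl library lay between the Ppm1bCKO libraries, so the groups overlapped.

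In the main edgeR test, the remaining Hox genes gave the only Hox value under an unadjusted p of 0.05. Of the 10 tested Hox genes, 0 were called and 1 had an unadjusted p under 0.05. That gene was Hoxa2, a hindbrain patterning gene, with 14 and 17 reads in the libraries labelled Ppm1bCKO and 9 and 3 reads in the Ppm1bfl/fl libraries (log2 fold change 1.61 ± 0.69, edgeR unadjusted p = 0.0458, adjusted p = 0.717). Hoxa6, which lies between Hoxa5 and Hoxa7, had 11 and 4 reads in the libraries labelled Ppm1bCKO against 26 and 18 reads in Ppm1bfl/fl (-1.26 ± 0.65, edgeR adjusted p = 0.717). Hoxa3 and Hoxa4, anterior genes of the cluster, had log2 fold changes of -0.09 ± 0.49 and -0.08 ± 0.48.

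Among TALE genes, several relatives of the members were more abundant than the members. Of the 11 listed, 10 were tested, 0 were called, 8 had a negative log2 fold change and the median was -0.18. Per kilobase of exon, Pbx2 averaged 17.9 CPM, Tgif1 11.6 CPM, Pknox1 6.21 CPM and Pbx4 5.77 CPM, beside 1.63 CPM for Pbx3. Pbx2 had a log2 fold change of 0.09 ± 0.16, Pbx4 one of -0.22 ± 0.21, Meis3 one of -0.16 ± 0.34, Tgif1 one of 0.15 ± 0.17 and Tgif2 one of -0.15 ± 0.30. Pknox1, a MEIS relative, was at 45.6 and 40.5 CPM in the Ppm1bCKO pair and at 43.8 and 42.3 CPM in Ppm1bfl/fl. Pknox2 had 5 and 2 reads against 12 and 12 reads (-1.46 ± 0.73), and Meis2 had 2 to 3 reads in every library.

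**Figure D4:**
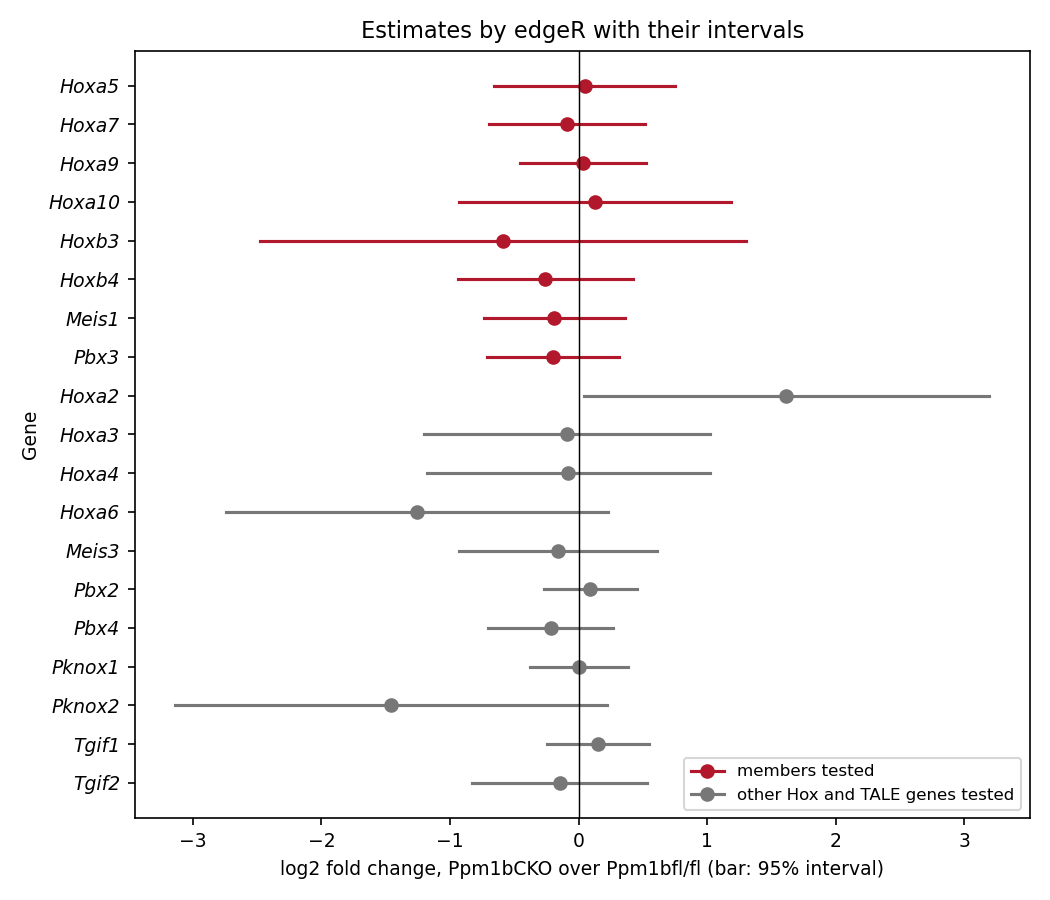
Log2 fold change (Ppm1bCKO over Ppm1bfl/fl) with its 95% interval by edgeR for the 8 tested members (red) and for other tested Hox and TALE genes (grey). Every member's interval includes 0, and the interval is narrowest for Hoxa9 (-0.46 to 0.52) and widest for Hoxb3 (-2.48 to 1.30).

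Genes that switch Hox clusters on and off did not pass the test either. Of 15 tested activators, among them the histone methyltransferase gene Kmt2a and its complex, 0 were called, 3 log2 fold changes were positive, 12 were negative, and the median was -0.08. Kmt2a, which keeps Hoxa genes active in HSCs, had 129 and 74.6 CPM in the libraries labelled Ppm1bCKO and 169 and 149 CPM in the Ppm1bfl/fl libraries (log2 fold change -0.64 ± 0.25, edgeR unadjusted p = 0.0332, adjusted p = 0.717). Ppm1bCKO replicate 2 was the lowest library for Kmt2a, for the histone methyltransferase gene Dot1l (-0.41 ± 0.21) and for Hcfc1, which encodes a subunit of KMT2 complexes (-0.47 ± 0.24). The 16 tested Polycomb genes, which silence Hox clusters through histone modification, had a median of -0.07 with 0 called; Eed, a core subunit, was at 0.34 ± 0.17, and the chromobox genes Cbx2 and Cbx7 at -0.46 ± 0.24 and -0.38 ± 0.23. The intestinal and embryonic Hox activators Cdx1, Cdx2 and Cdx4 were too low to test.

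Known targets and cofactors of HOXA9 and MEIS1 split evenly. Of 18 tested, 0 were called, 9 log2 fold changes were positive, 9 were negative, and the median was -0.02. Igf1, a growth factor gene, had the smallest p (-0.56 ± 0.23, edgeR unadjusted p = 0.0375, adjusted p = 0.717), followed by the kinase gene Pim1 (0.42 ± 0.20) and the pseudokinase gene Trib2 (0.39 ± 0.20). DESeq2 and limma-voom also called 0 genes of these lists and of the Hox and TALE lists. Without Ppm1bCKO replicate 1 edgeR called some activators, Polycomb genes, and targets and cofactors, beside a far larger number of other genes. That fit rests on a lone Ppm1bCKO library, so no conclusion about these lists is drawn from its calls.

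The genes closest to Hoxa9 and Meis1 in their pattern over the 4 libraries were looked for among tested genes of similar abundance. By the root mean square difference of centred log2 CPM, those nearest Hoxa9 were Lmf1 (0.012), Odf2l (0.015) and Sergef (0.016), and 433 of 3080 genes lay within 0.1 of it. For Meis1 they were the serine protease inhibitor gene Serpine2 (0.022), the smooth muscle cytoskeleton gene Smtn (0.037) and the tumour necrosis factor receptor family gene Cd27 (0.051), and 60 of 4007 genes lay within 0.1. With only 4 libraries such likeness is a description of these libraries.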

How the data were processed

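The data were bulk RNA-seq of 4 bone marrow libraries. The authors deposited raw whole-number counts per gene, not normalised, beside exonic lengths. Trimming, alignment and counting tools named in the submitters' processing notes were Trim Galore (version 0.6.7), HISAT2 (version 2.2.0) and featureCounts (version 2.0.1), with build mm10; annotation release, strand setting and handling of reads matching several genes are not given in the sources used here. Per the labels' protocols, RNA was extracted with TRIzol from pre-sorted cells and libraries were made with a TruSeq kit. Of 55399 identifiers, 55139 matched GENCODE M21, 54347 of them with the same version; of several identifiers with one symbol, that with most reads was used.

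The main test was edgeR's robust quasi-likelihood test (version 4.0.16, R 4.3.3) with TMM normalisation and no covariates, after filterByExpr at its minimum count of 10 and minimum total of 15. Benjamini-Hochberg adjustment ran over 16393 genes, with a threshold of 0.05. Standard errors were taken from the log2 fold change and the F statistic, and 95% intervals from the t distribution with the fit's degrees of freedom. The biological coefficient of variation was 19.1%. Replicates differed beyond sampling noise (chi-square per degree of freedom 47.8 for Ppm1bCKO and 22.9 for Ppm1bfl/fl). Alternatives used DESeq2 1.42.0, limma-voom (limma 3.58.1), other filters and size factors, a replicate block, counts without 432 immunoglobulin genes, and each library left out. Members and gene lists were chosen with earlier results of these data known. Named genes were all members, tested Hox and TALE genes (some list genes are not reported here), the 3 genes with the smallest p of each other list, markers, and the genes most like Hoxa9 and Meis1 in pattern; Ppbp, Hoxb3os, Hoxaas3, Gm37818 and the Cdx genes were named after their values were seen.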

Additional observations from a re-analysis of the deposited data

How the results depend on the processing

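Over 11 alternatives, 0 members were called in any, and none of the 7 alternatives that kept all libraries turned a member's direction; Hoxb3 had no value with a CPM of at least 1 in 2 libraries, which removes it. Directions turned only when a library was left out. The log2 fold changes then ranged from -0.068 to 0.16 for Hoxa5, -0.38 to 0.15 for Hoxa7, -0.013 to 0.071 for Hoxa9 (-0.0060 among them), -0.21 to 0.58 for Hoxa10 (-0.09 among them), -2.66 to 0.24 for Hoxb3 and -0.45 to 0.11 for Meis1, while Hoxb4 (-0.53 to -0.04) and Pbx3 (-0.30 to -0.11) stayed negative. The members' median ranged from -0.10 to -0.034, and was -0.10 with the CPM minimum. Members at an unadjusted p under 0.05 numbered 0 to 1. Genes called over all genes numbered 94 to 3336 with a library left out, 187 by DESeq2, 311 without a low-count filter and 0 by edgeR without immunoglobulin genes (989 at an unadjusted p under 0.05; limma-voom on all genes called 50). Called activators ranged from 0 to 6, Polycomb genes from 0 to 4, and targets and cofactors from 0 to 4. A lone library is assumed to vary like the others in these fits. With the replicate block 207 genes, against 61 without it, and 0 members were called. The correlation of deviations of same-numbered libraries was 0.064, which cannot settle whether those libraries shared a batch or pairing. Depth limits Hoxa10, Hoxb3 and Hoxb5 most.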
